A study of Mus musculus with 20 samples.

Results

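The genes described here are 5 genes through which the last stretch of the small intestine takes up bile acids, senses them and reports their return to the liver: Slc10a2, Fabp6, Nr1h4, Nr0b2 and Fgf15. They were taken by name, as every non-control probe of the array annotated to one of the 5 symbols. The array held 28482 distinct gene names, counting its own name for a probe where no RefSeq symbol was matched. That gave 6 probes, 2 of them for Slc10a2, and all 6 were well above background on all 20 arrays. RNA came from isolated intestinal epithelial cells of untreated 28-day-old mice of the strain labelled C57BBL6, detached from the tissue with EDTA and enriched by sedimentation. There were 4 individual mice in each of 5 genotypes: wild type, Trif LPS/LPS, Tlr3 knockout, Tlr4 knockout and MyD88 knockout. Trif and MyD88 are the adaptor proteins that carry the signal of Toll-like receptors into the cell. The labels place each mutation in the whole animal and give neither the segment of gut nor the sex of the mice. The design compares the resting epithelium of mice that lack parts of this innate sensing system with that of wild-type mice.

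Bile acids are made from cholesterol in the liver, released into the duodenum and reclaimed in the ileum. Slc10a2 is the sodium-dependent transporter (ASBT) that brings them across the apical membrane, and Fabp6 is the ileal bile acid binding protein of the enterocyte cytosol. Nr1h4 encodes FXR, the nuclear receptor that bile acids activate and that binds DNA together with RXR. FXR raises Fabp6, the basolateral exporter Slc51a/Slc51b, the repressor Nr0b2 (SHP) and the hormone Fgf15, which travels to the liver and lowers bile acid synthesis there.

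The measured stretches and upstream sequences of these genes are shown to place the measurements on the genes. Each probe is 60 bases long. The array design places the Fabp6 probe at mm9 chr11:43414954-43415013 on the minus strand, the second Slc10a2 probe at chr8:5098449-5098508 on the minus strand and the Nr0b2 probe at chr4:133109694-133109753 on the plus strand. The capitals mark the ATG with which the Fabp6 probe opens, the start codon of that gene, and the other probes have no part marked.
Fabp6 probe: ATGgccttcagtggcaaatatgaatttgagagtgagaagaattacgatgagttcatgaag
Slc10a2 second probe: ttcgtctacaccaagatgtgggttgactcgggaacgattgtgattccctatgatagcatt
Nr0b2 probe: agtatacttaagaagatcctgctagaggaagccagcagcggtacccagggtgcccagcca
The remaining probes lie at chr8:5086145-5086204 (Slc10a2, minus strand, the one used below), chr7:152086371-152086430 (Fgf15, plus strand) and chr10:88917299-88917358 (Nr1h4, minus strand), all in mm9.

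RefSeq promoter sequence (build GRCm38.p6) was matched by symbol for 4 of the 5 genes. The 250 bases before the start are printed for Fabp6 and Slc10a2, the pair that varied together most closely among mice of the same genotype. For Fabp6 they are chr11:43601563-43601812 and for Slc10a2 chr8:5105288-5105537, both on the minus strand, written 5′ to 3′ with motif matches in capitals.
Fabp6 upstream: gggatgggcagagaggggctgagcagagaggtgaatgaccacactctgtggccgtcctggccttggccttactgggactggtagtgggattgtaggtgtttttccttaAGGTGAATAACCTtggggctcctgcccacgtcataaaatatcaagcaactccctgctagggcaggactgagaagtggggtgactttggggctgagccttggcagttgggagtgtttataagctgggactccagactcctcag
Slc10a2 upstream: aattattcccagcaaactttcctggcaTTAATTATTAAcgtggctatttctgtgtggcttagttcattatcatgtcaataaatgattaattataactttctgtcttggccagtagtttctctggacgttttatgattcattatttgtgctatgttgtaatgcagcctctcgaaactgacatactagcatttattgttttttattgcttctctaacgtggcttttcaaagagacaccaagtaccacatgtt
A pair of palindromic motifs was searched, so that both strands were read at once, and both were chosen with the sequences in view. The first, AGGTNANTNACCT, is a loose form of the inverted repeat that FXR and RXR bind together. It occurred once in the Fabp6 window, from 142 to 130 bases before the start, and in 6 of 32851 windows of the same length (0.0183%). The second, TTAATNATTAA, is the core of the palindrome bound by HNF1 factors. It occurred once in the Slc10a2 window, from 223 to 213 bases before the start, and in 38 of 32851 windows (0.116%). Neither motif overlapped the other, and the Nr1h4 and Nr0b2 windows held neither. A match describes the letters only.

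Signals are given as log2 levels relative to the 75th percentile of the same array, so that a level of 1 is double the signal at that percentile. Levels of different genes come from different probes and are not compared with each other. Changes between genotypes were tested with limma over 21932 gene features on all 20 arrays, and a change is called where the Benjamini-Hochberg adjusted p is under 0.05. The 4 comparisons with wild type share the same 4 wild-type mice. In such bulk samples, fewer cells of a type and less RNA per cell cannot be told apart.

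Several properties of the arrays bear on the values. The 16 arrays of wild type, Trif, Tlr3 and Tlr4 mice lay on 4 shared slides read in 1 scan, with 1 mouse of each genotype per slide. On all 4 slides wild type was at position 1, Trif at 2, Tlr4 at 3 and Tlr3 at 4. Position and genotype therefore cannot be told apart among these 16 arrays, whether within a slide or with slide as a block. The MyD88 arrays were each on a slide of their own and in another scan, differing in scanner, scan date or both. For MyD88, scan and genotype cannot be told apart. Between 64.9% and 85.5% of probes per array were well above background, highest on a MyD88 array. A Y-linked signal exceeded Xist in 0 of 4 wild-type, 3 of 4 Trif, 1 of 4 Tlr3, 0 of 4 Tlr4 and 4 of 4 MyD88 mice, so sex also differed between the groups. In MyD88 against wild-type or Tlr4 mice, sex and genotype cannot be told apart. Both Tlr3 probes were below background on all 4 Tlr3 knockout arrays and above it on the 16 others. Myd88 signal was lower by 1.27 in MyD88 knockouts (change −1.27, adjusted p = 7.9e-07) but stayed above background on all 4 arrays. The 2 Tlr4 probes were near background in every genotype, above it on at most 7 of the 16 other arrays, so they do not check that label. Ticam1, which encodes Trif, was above background on all arrays and higher in Trif mutants than in wild type on both of its probes, by 0.66 (adjusted p = 6e-04) and 0.59 (adjusted p = 0.0029). The labels name an allele of Trif, not a knockout, and this RNA level does not check it. Defining genes of absorptive enterocytes were well measured, and the log2 of their summed signal was 10.42 to 10.99 in wild type.

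Counts of called genes stood below the background of all features, or near it. Against wild type, 1 of the 5 genes was called in Trif mutants (Nr0b2, higher), where 44.2% of all features were called. In Tlr3 knockouts 2 were called (Fabp6 and Nr1h4, both higher), against 38.6% of all features. In Tlr4 knockouts 0 were called by limma, against 12.7% of all features, although Nr1h4 and Nr0b2 had an unadjusted p of 0.0074 and 0.031. In MyD88 knockouts 2 were called (Fabp6 and Nr1h4, both higher), against 49.3% of all features. The median change of the 5 genes was 0.49 in Trif, 0.88 in Tlr3, 0.75 in Tlr4 and −0.56 in MyD88 mice, beside 0.19, 0.22, 0.02 and 0.30 for all features, so that the MyD88 median had the opposite sign to that of all features although both called genes were higher there. Between mutants, 0 of the 5 were called by limma in Trif against Tlr3 (20.1% of all features), Tlr3 against Tlr4 (30.4%) and Tlr4 against MyD88 mice (47.6%). Unadjusted p-values under 0.05 were found there for Nr1h4 and Nr0b2 (0.012 and 0.015), for Nr0b2 (0.02) and for Fgf15 (0.042). No count of calls here singles out the 5 genes from the rest of the array. How many of all features separate 2 genotypes without overlap was not counted, so a lack of overlap below does not single them out either.

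**Figure D1:**
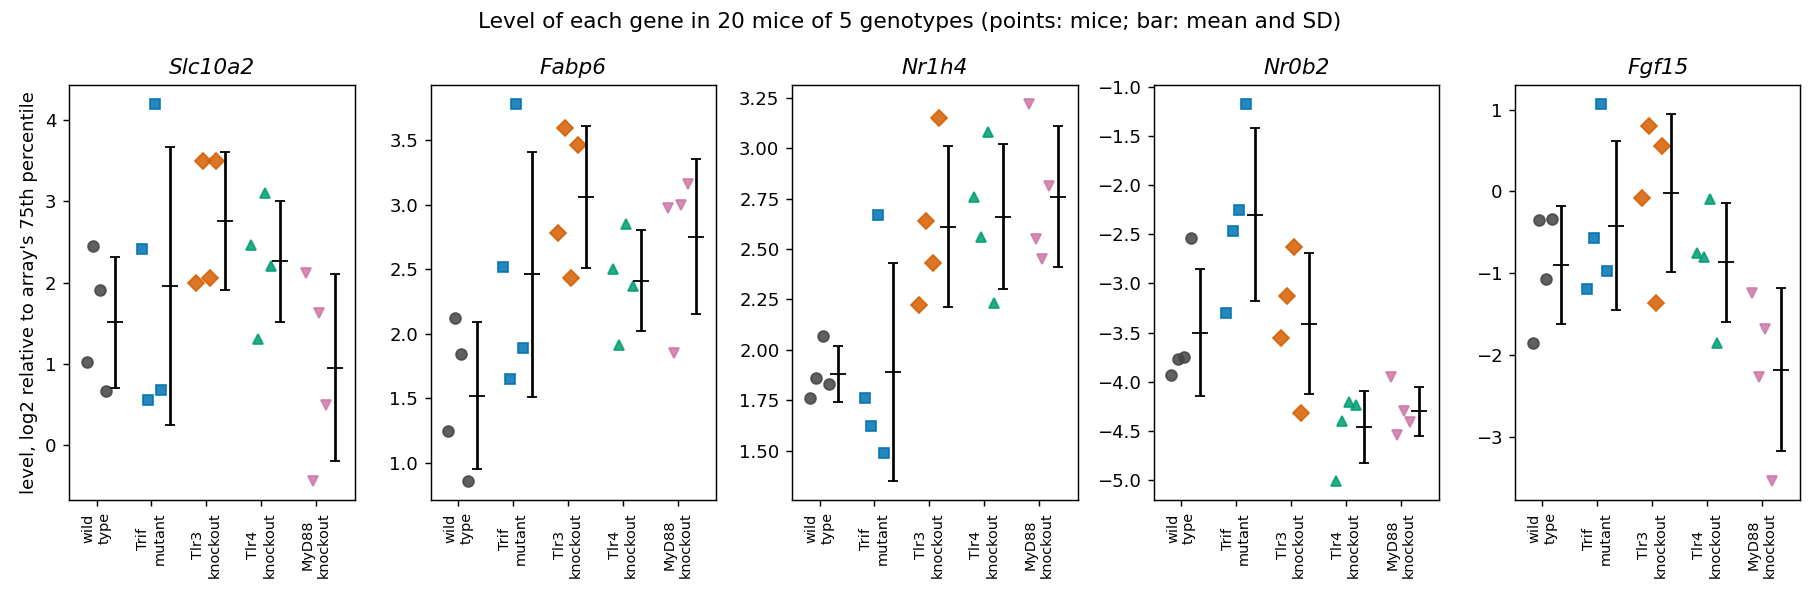
Level of each of the 5 genes in each mouse, on a log2 scale relative to the 75th percentile of the array; each panel has its own vertical axis. Symbols are the 4 mice of a genotype and the bar to their right is the mean with SD. Fabp6 in all Tlr3 knockouts lies above all wild-type mice, and Nr0b2 in all Tlr4 and MyD88 knockouts lies below all wild-type mice. Neither of these Nr0b2 changes passed the test (limma adjusted p = 0.15 and 0.11). The nearest MyD88 and wild-type mice were at −3.95 and −3.93.

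The uptake transporter Slc10a2 did not pass the test in any mutant, and it was the most variable of the 5 genes between mice of 1 genotype. Its levels were 1.02, 2.45, 1.91 and 0.67 in the wild-type mice. The Trif mutants had 2.41, 0.56, 4.20 and 0.68, so that mouse 3 was above and mouse 2 below every wild-type mouse. Tlr3 knockouts had 2.00, 3.50, 2.06 and 3.50, 2 of them above every wild-type mouse. Tlr4 knockouts had 2.46, 1.3, 3.1 and 2.2. MyD88 knockouts had 2.12, −0.44, 1.62 and 0.49, with 2 of them below every wild-type mouse. All 4 mutant groups overlapped the wild type.

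The mean Slc10a2 level was 1.51 ± 0.81 (SD, n = 4) in wild type and 2.76 ± 0.85 in Tlr3 knockouts, a change of 1.25 with a 95% interval from −0.30 to 2.81 (adjusted p = 0.19). On each of the 4 slides the Tlr3 knockout stood above its wild-type neighbour, by 0.14 to 2.82. In Trif mutants the change was 0.45 (interval −1.11 to 2.00), in Tlr4 knockouts 0.75 (−0.80 to 2.31) and in MyD88 knockouts −0.56 (−2.12 to 0.99). The Trif value turned to −0.30 without Trif mouse 3. Each of these intervals holds changes of over 1 log2 unit, so they do not show that the transporter was equal between genotypes. The levels of the second probe followed those of the first with r = 0.99 over the 20 arrays.

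The SD of Slc10a2 within genotype was 1.11, larger than that of 98.6% of features, whose median SD was 0.28. Fgf15 followed with 0.90 (96.4% lower), then Fabp6 with 0.64 (88.5%), Nr0b2 with 0.62 (87.2%) and Nr1h4 with 0.38 (65.8%). The same transporter did differ between 2 mutants. It was higher in Tlr3 than in MyD88 knockouts by 1.82 (adjusted p = 0.043, with 58.6% of all features called), with overlapping groups. That call was lost without Tlr3 mouse 2 (1.57) or 4 (1.57), or without MyD88 mouse 2 (1.35) or 4 (1.66).

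Fabp6, which carries bile acids through the enterocyte, rose in Tlr3 and MyD88 knockouts. Wild-type levels were 1.25, 2.12, 1.84 and 0.86. Tlr3 knockouts had 2.78, 3.59, 2.43 and 3.46, and all 4 lay above every wild-type mouse. MyD88 knockouts had 2.97, 1.85, 3.00 and 3.16, of which 3 lay above every wild-type mouse. Trif mutants had 2.52, 1.65, 3.78 and 1.89, and Tlr4 knockouts 2.50, 1.91, 2.85 and 2.37, both overlapping the wild type.

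From a wild-type mean of 1.52 ± 0.57 (SD, n = 4), Fabp6 reached 3.06 ± 0.55 in Tlr3 knockouts. The change was 1.55 ± 0.43 (SE), or 2.92-fold, with an adjusted p of 0.0089. It held within each slide, at 0.59 to 2.59, and it kept its call in every alternative that was run for it. In MyD88 knockouts the mean was 2.75 ± 0.60 and the change 1.23 (2.34-fold, adjusted p = 0.025). That call ended under normexp background correction (1.12), with the median in place of the 75th percentile as scale (0.83), with Xist level as a covariate (1.30), and without wild-type mouse 1 (1.14) or 4 (1.01) or MyD88 mouse 1 (1.15), 3 (1.14) or 4 (1.09). Changes of 0.94 in Trif mutants (adjusted p = 0.084) and 0.89 in Tlr4 knockouts (adjusted p = 0.22) did not pass, and without Trif mouse 2 the first of them did (1.21). No pair of mutants differed in Fabp6 at the threshold.

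Fabp1 and Fabp2, the liver-type and intestinal fatty acid binding proteins of the same family, rose where Fabp6 did and also in Trif mutants. Fabp1 was higher by 0.67 in Tlr3 knockouts (adjusted p = 0.0036), by 0.56 in MyD88 knockouts and by 0.54 in Trif mutants, and Fabp2 by 0.50, 0.44 and 0.46. In Tlr4 knockouts their changes of 0.36 and 0.22 did not pass. The change of Fabp6 was larger than that of Fabp1 or Fabp2 in each mutant. Under quantile normalization the Trif, Tlr3 and MyD88 values were 0.09, 0.22 and 0.28 for Fabp1 and 0.04, −0.02 and 0.11 for Fabp2, and none passed. Differences between the family members were not tested.

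The receptor gene Nr1h4 rose in Tlr3 and MyD88 knockouts, and its wild-type mice lay close together. They had levels of 1.76, 1.86, 2.07 and 1.83. In Tlr3 knockouts the levels were 2.22, 2.64, 2.43 and 3.15, in Tlr4 knockouts 2.76, 2.56, 3.08 and 2.23, and in MyD88 knockouts 3.22, 2.55, 2.45 and 2.81. Every mouse of these 3 genotypes lay above every wild-type mouse. Trif mutants had 1.76, 1.62, 2.67 and 1.49, with 3 of 4 within or below the wild-type range.

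Against the wild-type mean of 1.88 ± 0.14 (SD, n = 4), Nr1h4 changed by 0.73 ± 0.26 (SE) in Tlr3 knockouts (1.66-fold, adjusted p = 0.032) and by 0.88 ± 0.26 in MyD88 knockouts (1.83-fold, adjusted p = 0.010). The Tlr4 change of 0.78 had the same size and was positive on all 4 slides, from 0.40 to 1.01, but its adjusted p was 0.056. It passed without Tlr4 mouse 4 (0.92), under quantile normalization (0.82) and, at 0.78, with slide as a random block (adjusted p = 0.038) and in 3 other alternatives, but not with slide as a fixed block (adjusted p = 0.061). In Trif mutants the change was 0.01 (interval −0.53 to 0.55). The Tlr3 call ended under normexp background correction (0.69), quantile normalization (0.65) and median scaling (0.50), with Xist level as a covariate (0.71), and without wild-type mouse 1 (0.69), 2 (0.72) or 4 (0.71) or Tlr3 mouse 2 (0.72) or 4 (0.55). The MyD88 call ended under median scaling, at 0.48, and with the Xist covariate, at 0.79.

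Trif mutants stood apart from Tlr4 and MyD88 knockouts in Nr1h4. The receptor was lower in Trif mutants than in Tlr4 knockouts by 0.77 (change −0.77, adjusted p = 0.023, on 4 of 4 slides), where 40.7% of all features were called. Against MyD88 knockouts the change was −0.87 (adjusted p = 0.007, with 64% of features called). The groups overlapped through Trif mouse 3, at 2.67. The first of these calls ended without Trif mouse 1 (−0.73), 2 (−0.68) or 4 (−0.64) or Tlr4 mouse 1 (−0.74) or 3 (−0.63), and the second was kept whichever single mouse was left out. From highest to lowest mean the order was MyD88, Tlr4, Tlr3, Trif and wild type, and no neighbours in it differed at the threshold. For Trif against Tlr3 mice the change was −0.72 (adjusted p = 0.055), and it passed without Trif mouse 3 (−0.99) or Tlr3 mouse 1 (−0.86).

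Nr0b2, the small repressor induced by FXR, rose in Trif mutants, while Nr1h4 itself did not. Wild-type levels were −3.93, −3.77, −3.75 and −2.54, mouse 4 standing well above the others. Trif mutants had −3.30, −2.47, −2.25 and −1.17. Of these, 3 lay above every wild-type mouse. Tlr3 knockouts had −3.56, −3.13, −2.63 and −4.32, overlapping the wild type. Tlr4 knockouts had −5.01, −4.40, −4.21 and −4.24 and MyD88 knockouts −3.95, −4.54, −4.30 and −4.41, and every mouse of both lay below every wild-type mouse.

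The Trif change of Nr0b2 was 1.20 ± 0.41 (SE), or 2.30-fold (adjusted p = 0.025), from −3.50 ± 0.65 (SD, n = 4) to −2.30 ± 0.88. It was positive on all 4 slides, from 0.63 to 1.5. The call ended under normexp background correction (1.01), with only the 2 genotypes in the fit (1.20) and with Xist level as a covariate (1.33). It also ended without wild-type mouse 1 (1.06), 2 (1.11) or 3 (1.11) or Trif mouse 3 (1.18) or 4 (0.82). Tlr4 and MyD88 knockouts differed from wild type by −0.97 (adjusted p = 0.15) and −0.80 (adjusted p = 0.11), and the MyD88 difference passed under quantile normalization (−1.26) and median scaling (−1.20). In Tlr3 knockouts the change was 0.09.

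The largest differences in Nr0b2 lay between mutants. Trif mutants were above Tlr4 knockouts by 2.17 (interval 1.30 to 3.03, adjusted p = 0.00046), with no overlap and with 1.70 to 3.08 on each slide. They were above MyD88 knockouts by 2.00 (interval 1.13 to 2.87, adjusted p = 0.00047), again with no overlap. Both calls were kept whichever single mouse was left out, at 1.79 to 2.50 and 1.62 to 2.34. Tlr3 knockouts lay between, at 1.05 above Tlr4 (adjusted p = 0.061) and 1.11 below Trif (adjusted p = 0.066). No neighbours in the order Trif, Tlr3, wild type, MyD88, Tlr4 differed at the threshold. Trif against Tlr3 did pass under quantile normalization and median scaling (1.23 for both) and without Trif mouse 1 (1.45) or Tlr3 mouse 3 (1.37), and Tlr3 against Tlr4 without Tlr3 mouse 4 (1.36).

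Fgf15, the hormone that the ileum sends to the liver, did not pass against wild type in any mutant. Its wild-type levels were −1.85, −0.35, −1.07 and −0.34. MyD88 knockouts had −1.24, −2.27, −1.68 and −3.54, with 2 of 4 below every wild-type mouse. Trif mutants had −1.19, −0.57, 1.07 and −0.98, Tlr3 knockouts −0.08, 0.80, −1.37 and 0.56, and Tlr4 knockouts −0.75, −0.80, −0.09 and −1.86. All 4 groups overlapped the wild type.

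Mean Fgf15 was −0.90 ± 0.72 (SD, n = 4) in wild type and −2.18 ± 1.00 in MyD88 knockouts, a change of −1.28 (interval −2.54 to −0.02, adjusted p = 0.084). It passed under median scaling, at −1.68. Tlr3, Trif and Tlr4 changes were 0.88 (interval −0.37 to 2.14), 0.49 (−0.77 to 1.74) and 0.03 (−1.23 to 1.29), and the Trif value became −0.01 without Trif mouse 3. Between mutants, Fgf15 was higher in Tlr3 than in MyD88 knockouts by 2.16 (adjusted p = 0.0051) and higher in Trif mutants than in MyD88 knockouts by 1.76 (adjusted p = 0.016), the latter with no overlap. The Trif call ended without Trif mouse 3 (1.27) or MyD88 mouse 4 (1.31), and the Tlr3 call was kept at 1.71 to 2.61. Both set arrays of 1 scan against arrays of another, and their part in the difference was not tested.

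**Figure D2:**
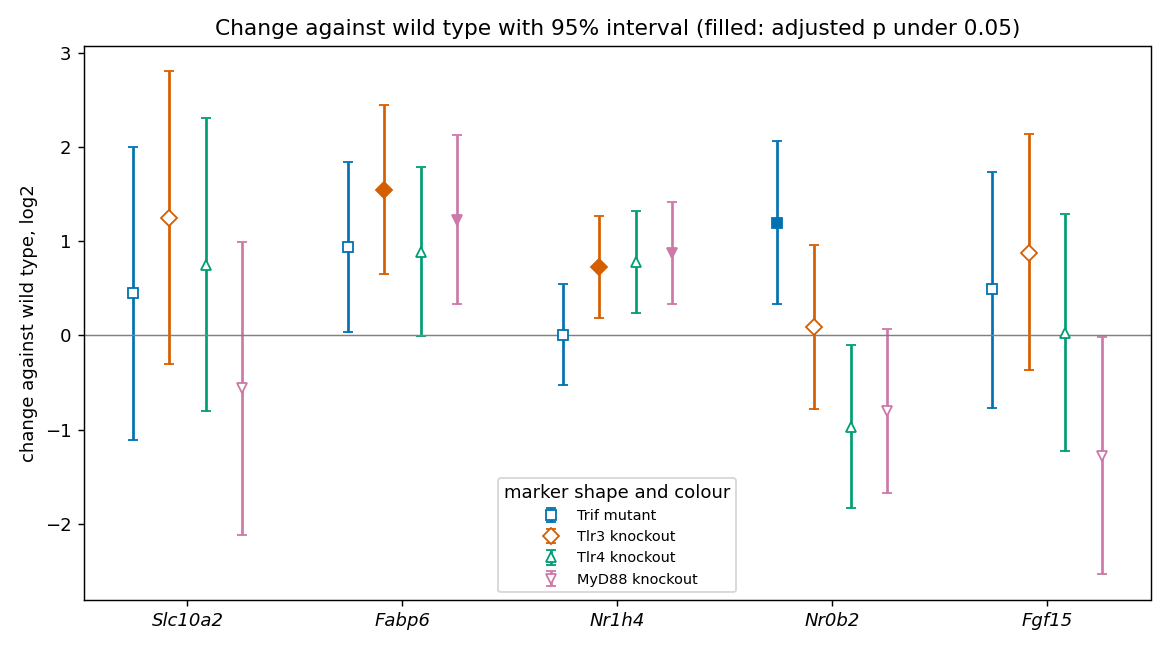
Change of each gene against wild type on the log2 scale, with its 95% interval from limma, for the 4 mutants; filled symbols passed an adjusted p of 0.05. Filled symbols are Fabp6 and Nr1h4 in Tlr3 and MyD88 knockouts and Nr0b2 in Trif mutants, and the intervals of Slc10a2 are the widest.

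Among mice of the same genotype, the transporter and the binding protein varied together. Deviations of Fabp6 and Slc10a2 from their genotype means correlated over 20 mice with r = 0.93 and Spearman's rho = 0.89 (permutation within genotypes, two-sided, adjusted p = 0.0007 and 0.0004 over 10 pairs of genes). Without the 2 mice farthest from the median of Fabp6, r was 0.88. It was 0.88 to 0.98 when each genotype was left out in turn, and the pair passed each time. Within wild type, Trif, Tlr3, Tlr4 and MyD88 mice alone, 4 mice each, r was 0.99, 0.99, 0.95, 1.00 and 0.72.

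Nr1h4 varied with both of these genes. Its r was 0.74 with Slc10a2 (rho = 0.66, permutation adjusted p = 0.012 and 0.018) and 0.70 with Fabp6 (rho = 0.66, permutation adjusted p = 0.018 for both). Fgf15 had r = 0.61 with Slc10a2 (rho = 0.60) and 0.62 with Nr1h4 (rho = 0.59), with permutation adjusted p = 0.036 and 0.041 for each. Without the 2 farthest mice these 4 values were 0.62, 0.56, 0.53 and 0.60. All 4 missed the threshold without the Trif mice, at 0.60, 0.51, 0.57 and 0.48. In that genotype mouse 3 was the highest of its group in Slc10a2, Fabp6, Nr1h4 and Fgf15. Fabp6 and Fgf15 did not pass (r = 0.49, rho = 0.47, permutation adjusted p = 0.11 and 0.12).

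Nr0b2 passed with none of the other 4 genes over the 20 mice. Its r was −0.28 with Fabp6, −0.25 with Slc10a2, −0.19 with Nr1h4 and 0.02 with Fgf15, and rho was −0.17, −0.10, −0.14 and 0.15 (permutation adjusted p of r from 0.54 to 0.95, and of rho 0.68 or 0.71). With Fabp6, Slc10a2, Fgf15 and Nr1h4, its r over the 4 mice of a genotype was 0.54, 0.91, 0.66 and 0.79 in MyD88 knockouts, −0.56, −0.49, −0.65 and −0.65 in Tlr3 knockouts, −0.69, −0.60, 0.61 and −0.13 in wild type, −0.20, −0.34, 0.09 and −0.16 in Trif mutants and 0.04, 0.03, −0.10 and −0.12 in Tlr4 knockouts, a difference between genotypes that was not tested. Nr0b2 did pass with 4 genes of the proximal gut, in a set of 40 relations chosen after the data had been seen (5 genes against 5 single genes and 3 list means). With Pdx1, the duodenal transcription factor, r was 0.85 and rho 0.72 (permutation adjusted p = 0.008 and 0.05). For the iron exporter Slc40a1 r was 0.80 (rho = 0.69), for the duodenal ferric reductase Cybrd1 0.75 (rho = 0.71), for the calcium channel Trpv6 0.70 (rho = 0.66) and for the mean of the proximal enterocyte list 0.77 (rho = 0.71), with permutation adjusted p of r from 0.022 to 0.029 and of rho 0.05 for each. That list holds Slc40a1 and Cybrd1, so its mean is no separate measure. Gata4, which marks the small intestine before the ileum, did not pass (r = 0.20, rho = 0.16, permutation adjusted p = 0.89 and 0.86). Nor did the means of the distal enterocyte list (r = 0.09, rho = 0.25, permutation adjusted p = 0.89 and 0.79) and the dividing crypt list (r = −0.11, rho = −0.33, permutation adjusted p = 0.89 and 0.77). Leaving out the 2 farthest mice gave 0.82, 0.73, 0.62, 0.64 and 0.69 for Pdx1, Slc40a1, Cybrd1, Trpv6 and the proximal list, and −0.61 for the crypt list. Over the 16 mice without MyD88 knockouts the former 5 were 0.85, 0.80, 0.76, 0.69 and 0.79.

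Of the other 4 genes, none passed with any of these 8 measures. Fabp6 and Slc10a2 had r = 0.53 (rho = 0.43) and 0.62 (rho = 0.54) with the mean of the distal enterocyte list (permutation adjusted p of r 0.24 and 0.11, of rho 0.42 and 0.29), and −0.36 (rho = −0.30) and −0.35 (rho = −0.28) with Pdx1 (permutation adjusted p of r 0.89 for both, of rho 0.77 and 0.79). Without the 2 farthest mice these were 0.38, 0.77, −0.37 and −0.25. With Gata4, Nr1h4 had r = −0.59 (rho = −0.53, permutation adjusted p = 0.11 and 0.28). Fgf15 had r = −0.46 with it (rho = −0.50, permutation adjusted p = 0.34 and 0.29). Leaving out the 2 farthest mice gave −0.44 and −0.38. Single mice ranged widely in the duodenal genes. Pdx1 lay between −1.09 and 0.42 in wild type, −4.93 and 0.85 in Trif mutants, −2.50 and 0.86 in Tlr3, −4.35 and −2.69 in Tlr4 and −2.76 and −1.41 in MyD88 knockouts. In the Trif mutants it was −4.93, −0.58, −2.74 and 0.85, and the mice with the lowest and highest Pdx1 were also those with the lowest and highest Nr0b2. The part of gut segment in the Nr0b2 differences was not tested.

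**Figure D3:**
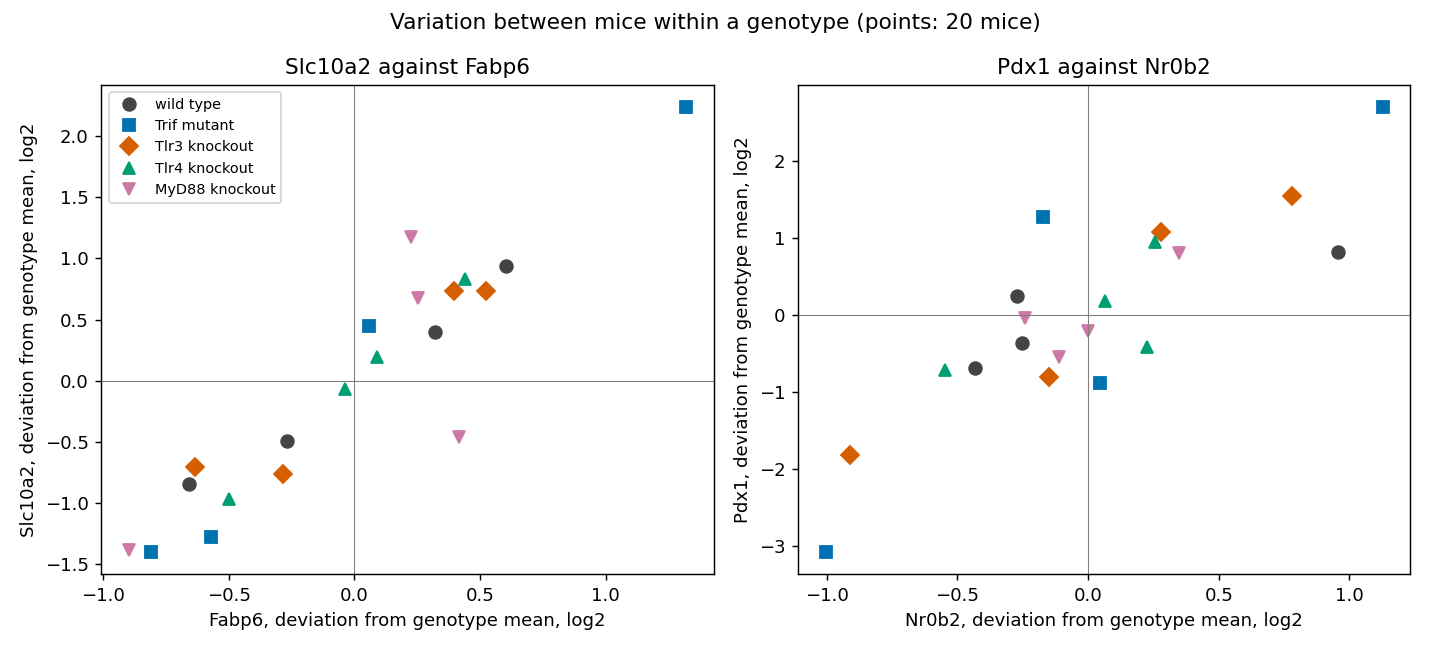
Deviation of each of the 20 mice from its genotype mean on the log2 scale, for Slc10a2 against Fabp6 (left) and Pdx1 against Nr0b2 (right); symbols mark genotypes. Points run along a rising line in both panels, with r = 0.93 on the left and 0.85 on the right.

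By Pearson correlation of log2 levels over all 20 arrays, each gene had a different set of closest genes. For Slc10a2 they were Slc25a48 (r = 0.90), Suox (0.89) and Gcnt1 (0.87), and for Fgf15 Cd164 (0.85), Trpm6 (0.83) and Gcnt1 (0.82), so that Gcnt1 was named for both. For Fabp6 they were Zfp773 (0.83), Upk1b (0.81) and Ccr3 (0.81). For Nr1h4 they were Inpp5j (0.84), Etfbkmt (0.84) and Nhej1 (0.83). Nr0b2 had the closest neighbours of all, Ddit4l (0.95), Fbxw11 (0.91) and Gadd45a (0.90). These values mix differences between genotypes with those between mice, and they are the highest of 21932 features, so no test goes with them.

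The list named bile acid export and transport held 7 genes, all above background, and the transport of bile acids by each was not measured. In Tlr3 knockouts 5 rose and 1 fell, in Trif mutants 3 rose and 1 fell, in MyD88 knockouts 2 fell and in Tlr4 knockouts 0 passed limma (2 at an unadjusted p under 0.05), with medians of 0.78, 0.42, −0.06 and 0.08. Of all features 24.9% rose and 13.7% fell in Tlr3 knockouts, 28.4% and 15.7% in Trif mutants, 36.9% and 12.4% in MyD88 knockouts and 9.64% and 3.06% in Tlr4 knockouts. The median change of all features was 0.22, 0.19, 0.30 and 0.02 in the same order. Slc51a and Slc51b, the subunits of the basolateral exporter and targets of FXR, rose in Tlr3 knockouts by 1.13 ± 0.23 (SE, adjusted p = 0.0011) and 0.88 ± 0.20 (adjusted p = 0.0028). Slc51a went from 4.68 ± 0.24 (SD, n = 4) to 5.81 ± 0.24 and Slc51b from 4.95 ± 0.19 to 5.84 ± 0.17. In MyD88 knockouts, where Fabp6 and Nr1h4 rose, their changes were 0.32 and −0.14 and did not pass. In Trif mutants they were 0.42 and 0.21. The Slc51b call in Tlr3 knockouts missed the threshold under normexp background correction (0.87, adjusted p = 0.051).

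The other genes of this list are pumps of the ABC family. Abcc2 (MRP2), an apical pump, rose by 1.10 in Trif mutants (adjusted p = 0.0039) and 0.78 in Tlr3 knockouts (adjusted p = 0.035) and fell in MyD88 knockouts (change −1.05, adjusted p = 0.0056). Abcb1a, a P-glycoprotein, had changes of 1.47, 0.98 and −1.06, which all passed. Abcc4 (MRP4), a basolateral pump, fell in Trif mutants (−1.05, adjusted p = 0.0028) and Tlr3 knockouts (−1.14, adjusted p = 0.0022), but under normexp background correction these were −0.06 and −0.61 and did not pass. Abcg2 rose by 0.52 and 0.44 in the same mutants and lost both calls under normexp and quantile scaling, the Trif call without wild-type mouse 1 (0.45) or Trif mouse 3 (0.39) and the Tlr3 call when any 1 of 7 mice was left out, Tlr3 mouse 1 being the exception (0.37 to 0.47), and Abcc3 passed in none. The Tlr3 calls of Abcc2 and Abcb1a were lost under normexp (0.74 and 0.96) and median scaling (0.56 and 0.76). Abcc2 there also lost its call without wild-type mouse 1, 3 or 4 or Tlr3 mouse 1, 2 or 3 (0.68 to 0.80), and Abcb1a without wild-type mouse 1 or 3 or Tlr3 mouse 1, 2 or 3 (0.75 to 0.99). In MyD88 knockouts Abcb1a missed the threshold under normexp (−0.93) and without wild-type mouse 2 (−0.89) or MyD88 mouse 2 (−0.86), and with the Xist covariate neither pump passed (−1.21 for Abcb1a, −0.98 for Abcc2).

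**Figure D4:**
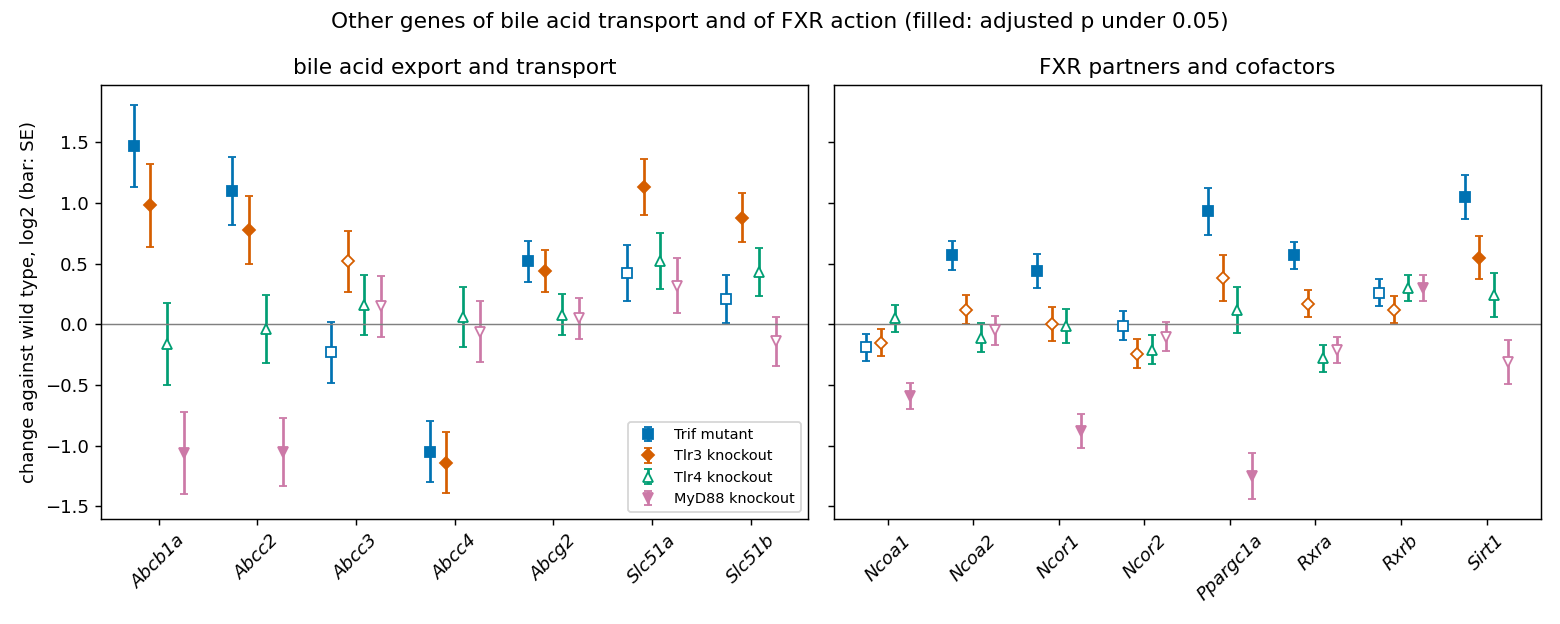
Change against wild type on the log2 scale with its SE for 7 genes listed under bile acid export and transport (left) and 8 partners and cofactors of FXR (right) in the 4 mutants. Filled symbols passed an adjusted p of 0.05. In Tlr4 knockouts no symbol is filled; Abcb1a and Abcc2 lie above 0 in Trif mutants and Tlr3 knockouts and below it in MyD88 knockouts.

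Of 8 partners and cofactors of FXR, 5 rose in Trif mutants, 1 rose in Tlr3 knockouts, 0 passed by limma in Tlr4 knockouts (2 at an unadjusted p under 0.05), and 1 rose and 3 fell in MyD88 knockouts. Of all features 28.4%, 24.9%, 9.64% and 36.9% rose in these mutants, and 12.4% fell in MyD88 knockouts. Medians were 0.51, 0.12, 0.02 and −0.26, beside 0.19, 0.22, 0.02 and 0.30 for all features. Rxra, the DNA-binding partner of FXR in the gut, rose by 0.57 in Trif mutants (adjusted p = 0.00056), from 4.52 ± 0.13 (SD, n = 4) to 5.09 ± 0.18. Its changes in Tlr3, Tlr4 and MyD88 knockouts were 0.17, −0.28 and −0.21. Sirt1, the deacetylase, rose by 1.05 in Trif mutants and 0.55 in Tlr3 knockouts. The coactivator Ppargc1a rose in Trif mutants by 0.93 and fell in MyD88 knockouts (change −1.25), and the corepressor Ncor1 went the same ways, at 0.44 and −0.88. Rxra in Trif mutants missed the threshold under normexp (0.38, adjusted p = 0.082), and Ncor1 there lost its call under normexp, quantile and median scaling and without Trif mouse 1 (0.35) or 2 (0.39). Sirt1 in Tlr3 knockouts lost its call without wild-type mouse 2 (0.52) or 4 (0.47) or Tlr3 mouse 2 (0.53).

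Other receptors that respond to bile acids were measured beside FXR. The vitamin D receptor Vdr, which lithocholic acid can activate, rose in all 4 mutants, by 0.78, 0.77, 0.43 and 0.34 in Trif, Tlr3, Tlr4 and MyD88 mice (adjusted p = 5.3e-05, 1e-04, 0.018 and 0.021), although the MyD88 change was −0.06 under median scaling and missed the threshold without wild-type mouse 1 (0.27) or MyD88 mouse 4 (0.31). The Tlr4 change missed it under median scaling (0.30) and without wild-type mouse 1 (0.36) or Tlr4 mouse 4 (0.33). Nr1i3, the receptor CAR, rose in Trif (0.97) and Tlr3 (0.72) mice and fell in MyD88 knockouts (change −0.67). Nr1i2, the receptor PXR, rose in Tlr3 knockouts by 0.64 (adjusted p = 0.0085; 0.41 and not called under median scaling). Cyp3a11, a detoxifying enzyme and target of PXR, rose by 2.83 in Trif mutants (adjusted p = 0.0011). The membrane receptors Gpbar1 (TGR5) and S1pr2 rose in MyD88 knockouts by 0.68 and 0.72, but under quantile normalization their changes were 0.03 and 0.15 and did not pass. Over the 11 genes of this list 5 rose in Trif mutants, 5 in Tlr3 knockouts, 1 in Tlr4 knockouts with 1 lower, and 4 in MyD88 knockouts with 3 lower. The shares of all features that rose were 28.4%, 24.9%, 9.64% and 36.9%, so that the MyD88 count of higher genes was at the background, and 3.06% and 12.4% fell in Tlr4 and MyD88 knockouts.

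For the axis by which Fgf15 acts on the liver, 3 of 5 listed genes passed the filter on dim probes. Of the others, Malrd1 had no probe under that name and Cyp8b1 did not pass the filter. Klb, the co-receptor β-Klotho, was lower in Tlr4 knockouts (change −0.98, adjusted p = 0.0059), but normexp background correction turned this to 0.18. Fgfr4, the FGF15 receptor, rose in MyD88 knockouts by 0.95 (adjusted p = 0.0042), and by 0.55 without passing under median scaling. Cyp7a1, the rate-limiting liver enzyme of bile acid synthesis, was well above background on 0 of 4 Trif arrays and 3 of 4 wild-type arrays. Its measured means were −6.16 in wild type and −7.53 in Trif mutants (limma adjusted p = 0.0043). The Trif mean is not signal above background, and normexp turned the sign of the change (0.82 in Trif mutants), so no fold is given. Cyp8b1 stayed below that limit on all 20 arrays.

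Markers of gut region and of cell type also differed between genotypes. Of all features 28.4% rose and 15.7% fell in Trif mutants, 24.9% and 13.7% in Tlr3, 9.64% and 3.06% in Tlr4 and 36.9% and 12.4% in MyD88 knockouts. Of 11 distal enterocyte genes 7 rose in Trif mutants and 6 in Tlr3 knockouts, 0 passed limma in Tlr4 knockouts (1 at an unadjusted p under 0.05) and 3 fell in MyD88 knockouts. Of 13 proximal enterocyte genes 11 and 8 rose in Trif and Tlr3 mice, 1 fell in Tlr4 knockouts, and 1 rose and 4 fell in MyD88 knockouts. Absorptive enterocyte genes of any region rose for 9 of 10 in both Trif and Tlr3 mice, while dividing crypt genes fell for 7 of 8 in both. The range of summed dividing crypt signal, as log2, was 4.92 to 5.27 in wild type, 1.79 to 3.88 in Trif, 3.21 to 4.22 in Tlr3, 4.54 to 5.33 in Tlr4 and 5.28 to 5.95 in MyD88 mice. Gata4 passed in no mutant, with changes of −0.16, 0.05, −0.12 and −0.27 in Trif, Tlr3, Tlr4 and MyD88 mice. In Tlr4 knockouts Pdx1 was lower (change −3.23, adjusted p = 0.03), as were Trpv6 (−4.56, adjusted p = 0.044) and Cybrd1 (−5.36). All 3 missed the threshold under normexp (−2.17, −2.63 and −3.32). Pdx1 did so without wild-type mouse 2 or 4 or Tlr4 mouse 1, 2 or 4 (−3.30 to −2.96), and Trpv6 without wild-type mouse 2, 3 or 4 or Tlr4 mouse 1, 2 or 4 (−4.76 to −3.74).

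In MyD88 knockouts, where Fabp6 and Nr1h4 rose, 5 of 10 leukocyte, 5 of 7 stroma and 4 of 7 hepatocyte genes rose too, where 36.9% of all features rose. The summed leukocyte signal, as log2, was 6.59 to 7.66 there and 5.48 to 6.29 in wild type. The summed stromal signal was 3.01 to 3.75 against 3.55 to 4.07, and the sum over the hepatocyte list 4.84 to 5.44 against 4.66 to 4.88. These sums follow the brightest gene of each list, Lyz2, Acta2 and Cps1, whose means were 5.63, 3.75 and 4.75 in wild type and 7.02, 3.26 and 5.06 in MyD88 knockouts. Cps1 was bright in wild type, where Alb was above background on 1 of 4 arrays, so the hepatocyte sum is no measure of liver cells. The mean log2 level over each list was higher in every MyD88 mouse than in every wild-type mouse, at −1.55 to −0.69 against −1.92 to −1.81 for leukocyte, −3.27 to −2.61 against −4.00 to −3.91 for stromal and −3.60 to −2.91 against −4.58 to −4.17 for hepatocyte genes. In Tlr3 knockouts the leukocyte sum was 4.15 to 4.71, the stromal sum 4.56 to 5.04 and the hepatocyte sum 3.51 to 4.08. There Lyz2, Acta2 and Cps1 had means of 3.92, 4.79 and 3.77, while the list means were −2.27 to −1.57, −4.01 to −3.15 and −4.45 to −4.28 and overlapped wild type in all 3 lists. Of these lists 2 leukocyte, 1 stroma and 1 hepatocyte gene rose in Tlr3 knockouts (24.9% of all features) and 1 leukocyte and 1 hepatocyte gene fell (13.7%). The defining hepatocyte gene Alb was above background on 1 of 4 wild-type and 4 of 4 MyD88 arrays, and the muscle gene Des on 0 of 4 and 4 of 4. Of all probes, 71% to 85.5% were above background on the MyD88 arrays, read in another scan, and 64.9% to 69.1% on wild-type arrays. Dim genes enter the list means, which were not taken under other scalings, so scan and cell content cannot be told apart there. The part of these cell types, of crypt content and of gut region in the changes of the 5 genes was not tested.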

How the data were processed

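RNA of 20 mice was hybridised to 1-colour (Cy3) Agilent arrays. The spot intensity used is the processed signal deposited in the scanner files, which Agilent Feature Extraction 10.7.3.1 had background-subtracted and detrended within each array, per the file headers; the probes are placed on mm9. The authors also deposited a table of scaled intensity, which is the scanner value multiplied by an array's own factor, 1.58 to 2.27, with a floor of 15.

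From these, log2 intensity minus each array's 75th percentile was taken, outlier spots were left out and spots of a probe averaged. Kept were 31603 of 41174 probes, those that passed the scanner's background flag on 4 or more of the 20 arrays, and the probe with the highest mean stood for its gene, giving 21932 features. limma 3.58.1 in R 4.3.3 was fitted to all 20 arrays (lmFit, eBayes; Benjamini-Hochberg over all features). The labels state individual animals. Their number limits the precision. Correlations used deviations from genotype means with 100000 permutations within genotypes. The test was run on simulated data with independent arrays, which did not imitate the correlation between arrays of a slide. The genes, the 14 lists and the rules for naming were chosen with earlier results of these data known. Named were the 5 genes, any measured gene of the 5 pathway and region lists and up to 4 of each other list. Also named were the 3 features with a RefSeq symbol closest to each gene, the 5 genes left out. Fabp1, Fabp2, Slc40a1, Cybrd1, Alb, Des, Lyz2, Acta2 and Cps1 were named after their values were seen. Lists not described in the text by gene were colon epithelium (2 higher and 2 lower in Trif, 1 higher in Tlr3, 0 in Tlr4 and 3 higher in MyD88, of 7), epithelium (5, 4, 0 and 4 higher of 6) and regional transcription factors (6 higher and 2 lower, 1 and 2, 1 and 1, 0 and 5, of 14).

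Same-numbered wild-type, Trif, Tlr3 and Tlr4 arrays share a slide, per the file headers. Their deviations correlated by 0.17 to 0.35 for wild type and Tlr4, 0.10 to 0.32 for Trif and −0.07 to 0.32 for Tlr3.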

Additional observations from a re-analysis of the deposited data

Results flagged for a closer look

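Among the 25 combinations of gene and genotype, each with 4 mice, 2 held a mouse far from the other 3 by Dixon's criterion, which chance meets in about 1 in 20 such groups. Fabp6 in MyD88 knockout mouse 2 was 1.85, the lowest of its group, with a gap to the next of 0.85 of the group's range. Nr0b2 in wild-type mouse 4 was −2.54, the highest of its group, with a gap of 0.87 of the range.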

How the results depend on the processing

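With the slide, and so the replicate number, as a replicate block on the 16 arrays that share slides, no call of the 5 genes changed: the Fabp6 change in Tlr3 knockouts stayed at 1.55 with an adjusted p of 0.017, Nr1h4 there at 0.73 (0.033) and Nr0b2 in Trif mutants at 1.20 (0.033). The deposited value table, no filter on dim probes, all probes as features and, chosen after seeing the data, the fit without the MyD88 arrays changed no call either. Normexp background correction gave 1.12 for Fabp6 in MyD88 knockouts, 1.01 for Nr0b2 and −0.10 for Nr1h4 in Trif mutants and 0.69 for Nr1h4 in Tlr3 knockouts, with 1 gene called in MyD88, 1 in Tlr3 and 0 in Trif mice. Quantile normalization gave 0.65 for Nr1h4 in Tlr3 and 0.82 in Tlr4 knockouts, −0.07 in Trif mutants, −1.26 for Nr0b2 in MyD88 and −0.11 in Tlr3 knockouts and −0.01 for Fgf15 in Tlr4 knockouts, with 1 called in Tlr3 and 1 in Tlr4. Median scaling gave 0.83 for Fabp6, −1.68 for Fgf15, −1.20 for Nr0b2 and 0.48 for Nr1h4 in MyD88 knockouts, 0.50 for Nr1h4 and −0.14 for Nr0b2 in Tlr3, −0.10 for Fgf15 in Tlr4 and −0.11 for Nr1h4 in Trif mice, with 1 called in Tlr3. The Tlr4 change of Nr1h4, 0.78, passed with probes above background on all 20 arrays, trended robust moderation, only the 2 genotypes in the fit or slide as a random block, giving 1 called; with only the 2 genotypes Nr0b2 in Trif mutants (1.20) did not pass, leaving 0. Xist as a covariate gave 1.30 for Fabp6 and 0.79 for Nr1h4 in MyD88 knockouts (0 called), 0.71 for Nr1h4 in Tlr3 (1 called), 1.33 for Nr0b2 and −0.06 for Nr1h4 in Trif mutants (0 called) and −0.01 for Fgf15 in Tlr4 knockouts. The cause was not tested.

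Between mutants, Fabp6 in Trif against Tlr4 mice was −0.04 under normexp and −0.08 under quantile scaling. Nr0b2 in Tlr4 against MyD88 mice was 0.23, 0.22 and, under median scaling, 0.11. Median scaling also gave 0.00 for Fabp6 in Trif against MyD88, 0.03 for Nr1h4 in Tlr3 against MyD88 and 0.17 in Tlr4 against MyD88 mice.

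Leaving out 1 mouse at a time gave 1.01 to 1.53 for Fabp6 in MyD88 and 0.50 to 1.21 in Trif mice, −0.29 to 0.36 for Fgf15 in Tlr4 and −0.01 to 0.74 in Trif, −0.18 to 0.41 for Nr0b2 in Tlr3 and 0.82 to 1.53 in Trif, 0.55 to 0.86 for Nr1h4 in Tlr3, 0.64 to 0.92 in Tlr4 and −0.26 to 0.14 in Trif, and −0.30 to 0.91 for Slc10a2 in Trif. Called genes then numbered 1 to 2 in MyD88, 1 to 2 in Tlr3, 0 to 1 in Tlr4 and 0 to 2 in Trif mice. Between mutants, in runs chosen after seeing the data, the ranges that crossed 0 were −0.39 to 0.32 for Fabp6, −0.04 to 0.72 for Fgf15 and −1.05 to 0.16 for Slc10a2 in Trif against Tlr4, −0.25 to 0.02 for Nr0b2 and −0.24 to 0.06 for Nr1h4 in Tlr4 against MyD88, and for Nr1h4 −0.33 to 0.01 in Tlr3 against MyD88 and −0.23 to 0.09 in Tlr3 against Tlr4.

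Correlations within genotype that lost their call were Slc10a2 with Fgf15 and Fgf15 with Nr1h4 under normexp (0.55 and 0.56), without Tlr4 mice (0.64 and 0.56) and without Tlr3 mice (0.58 and 0.65), the latter pair under quantile scaling (0.59), the former without MyD88 mice (0.61), and, without Trif mice, these at 0.57 and 0.48, Fabp6 with Nr1h4 at 0.51 and Slc10a2 with Nr1h4 at 0.60. Fgf15 with Nr0b2 turned to −0.02 under quantile scaling and without Trif mice, −0.10 without wild type and −0.05 without MyD88 mice.

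Of the features called, 64.4% were higher in Trif, 64.6% in Tlr3, 75.9% in Tlr4 and 74.9% in MyD88 mice. Median scaling, which moved the median of all features to 0.08, −0.01, −0.11 and −0.10, made these 53.6%, 37.4%, 55.8% and 34.8%. Quantile scaling gave 54%, 48.6%, 67% and 59.3%, and normexp 60.8%, 51.6%, 80.6% and 58.3%, calling 5161, 2977, 664 and 2865 features in place of 9687, 8463, 2785 and 10815. Xist as a covariate called 6311 in Trif mutants. Normexp moved the median of all features in Trif mutants to 0.54 and in Tlr4 knockouts to 0.23.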
